A study of Mus musculus with 31 samples.

Results

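The Desert hedgehog pathway was followed here through 10 genes: the ligand gene Dhh, the receptor and co-receptor genes Ptch1, Hhip, Smo, Boc and Gas1, the inhibitor gene Sufu, and the transcription factor genes Gli1, Gli2 and Gli3. They are 10 of 18193 genes that the arrays name, and they are covered by 27 probe sets, each a group of short probes read as 1 signal. A member's probe sets were those whose only annotated symbol is that gene, and where more than 1 named a gene, the one brightest on average across the 31 arrays was read. The rule that names the members uses no measured value, though they were chosen with earlier results of these data known, and the probe set rule favours the brightest one.

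Hedgehog ligands bind the receptor Patched1 (Ptch1), which in their absence holds the membrane protein Smoothened (Smo) inactive. Ligand binding frees Smo, Sufu loses its grip on the Gli proteins, and these switch on target genes, among them Gli1, Ptch1 and Hhip, so that the level of those transcripts is commonly read as a measure of pathway activity. In the fetal mouse testis Dhh is made by Sertoli cells, the supporting cells of the testis cords, and acts on interstitial cells that give rise to fetal Leydig cells, the androgen producers, and on peritubular myoid cells around the cords. Endothelial and Schwann cells are known to make Dhh in other settings.

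RNA was measured in mouse gonads at embryonic day 14.5, on 1 single-colour array for each pair of gonads, freed from the mesonephros. Each sex had 4 genotypes, and all embryos carried 1 copy of an Sf1-cre transgene, which is active in somatic cells of the gonad, so that germ cells kept both genes. The double knockout (DKO) was Ctnnb1f/f; Sox9f/f, the Sox9 knockout (Sox9KO) was Ctnnb1+/f; Sox9f/f and the Ctnnb1 knockout (Ctnnb1KO) was Ctnnb1f/f; Sox9+/f. The control (Ctr) was Ctnnb1+/f; Sox9+/f and so carried Cre and 1 floxed allele of each gene itself, and the groups hold no gonads without Cre. There were 4 arrays in each of the 8 groups except XY DKO, with 3. Ctnnb1 encodes beta-catenin, which carries the WNT signal of the ovary, and Sox9 encodes the transcription factor that directs Sertoli cell differentiation. The design asks what becomes of a gonad of either sex that lacks 1 of these factors or both.

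Sox9 signal lay between 8.65 and 34.9 in XY DKO and between 7.14 and 41.7 in XY Sox9KO, against 839.7 to 1025 in XY Ctr, as the labels have it. Ctnnb1 group means ran from 12319 to 13816, and since the sources do not place its probes inside or outside the deleted stretch, they check no label. Y-linked Eif2s3y separated all XY from all XX arrays. XX Ctnnb1KO replicate 4 stood apart from its group: its Xist signal was 51.1, against 7490 to 9432 on the other XX arrays, while its Eif2s3y, at 29.6, was at the XX level. The main differences below that include it are also given without it, and the calls among all genes in XX Ctnnb1KO against XX Ctr were 963 without it, against 1192 with it. Array medians ran from 120.6 to 168.8, and the number of arrays limits the precision. Endothelial marker genes summed to 4074 to 5682 on all 31 arrays, and Schwann cell and glia markers to 339 to 842.

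For 8 of the 10 genes a RefSeq promoter was at hand, and 3 are shown because among these 8 their transcripts differ most between XY Ctr and XX Ctr: the ligand gene and 2 genes commonly used as hedgehog targets. They are the 250 bases before the annotated start in build GRCm38.p6, all on the minus strand, at chr15:98898541-98898790 for Dhh, chr13:63565736-63565985 for Ptch1 and chr8:80058009-80058258 for Hhip. The genes extend to 98898562 for Dhh, 63573460 for Ptch1 and 80058060 for Hhip. Each sequence thus lies before a start inside its gene and not before the gene's outermost start. The Ptch1 sequence lies wholly within the gene, those of Dhh and Hhip only in part. Capitals mark GGGCGG on either strand, the GC box that Sp family factors bind.
Dhh: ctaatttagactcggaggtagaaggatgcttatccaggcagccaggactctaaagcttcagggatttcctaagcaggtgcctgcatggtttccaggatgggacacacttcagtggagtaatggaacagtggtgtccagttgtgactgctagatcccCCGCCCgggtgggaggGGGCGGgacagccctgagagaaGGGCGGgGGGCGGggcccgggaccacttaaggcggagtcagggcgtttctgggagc
Ptch1: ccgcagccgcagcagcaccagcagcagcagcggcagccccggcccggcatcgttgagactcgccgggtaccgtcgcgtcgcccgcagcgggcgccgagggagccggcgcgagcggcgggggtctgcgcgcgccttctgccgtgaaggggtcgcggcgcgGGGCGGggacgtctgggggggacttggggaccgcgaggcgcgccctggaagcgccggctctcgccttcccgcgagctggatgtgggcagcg
Hhip: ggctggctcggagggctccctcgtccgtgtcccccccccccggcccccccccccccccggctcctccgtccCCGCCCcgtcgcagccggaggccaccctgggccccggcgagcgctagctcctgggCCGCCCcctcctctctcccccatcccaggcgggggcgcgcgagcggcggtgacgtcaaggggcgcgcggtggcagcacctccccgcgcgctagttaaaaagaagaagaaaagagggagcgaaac
The GC box, searched for after the sequences were seen, stands 4 times before Dhh, once before Ptch1 and 2 times before Hhip. It is present in 7 of the 8 members, and in 32.7% of the 32851 promoters in the table. GC content was 59.6% for Dhh, 78.4% for Ptch1 and 76% for Hhip, with a median of 52.4% over all promoters. The Gli consensus GACCACCCA, its core CCACCCA, the Sox type motif ACAATGG and the NR5A1 type motif AAGGTCA, each read on both strands over 250 bases before and 50 after the start, had no match in any of the 8. They are held by 0.253%, 9.30%, 3.66% and 4.72% of all promoters, in that order. The core lies within the consensus, and a window this short says nothing of more distant sites.

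The gene Dhh lies on chromosome 15 at 98881615 to 98898562, Ptch1 on chromosome 13 at 63508328 to 63573460 and Hhip on chromosome 8 at 79965850 to 80058060 (GRCm38.p6). Gli1 lies on chromosome 10 at 127329882 to 127341579, Gli2 on chromosome 1 at 118834061 to 119054405, and Gli3 on chromosome 13 at 15463723 to 15730026. Boc is on chromosome 16 at 44485045 to 44558870 and Gas1 on chromosome 13 at 60174405 to 60177535. Smo is on chromosome 6 at 29735497 to 29761366 and Sufu on chromosome 19 at 46396896 to 46488804.

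All differences below are on the scale of log2(signal + 16), which understates changes of genes with low signal, and were tested in 1 limma fit over 11777 genes and all 31 arrays. A gene was called at a Benjamini-Hochberg adjusted p under 0.05 over all genes of that comparison. All 10 members passed the filter on low signal, Hhip only through the XY Ctr and XY Ctnnb1KO arrays, Gli1 through these and XY DKO, and Dhh through 5 groups, so a high level in those groups is what let them be tested.

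The fetal testis held far more Dhh transcript than the fetal ovary, and more of the hedgehog target transcripts. In XY Ctr against XX Ctr, 5 members were higher and 2 lower, while 18.0% of all genes tested were called higher and 19.8% lower. Their median difference was 0.81, against -0.02 over all genes. In XY Sox9KO against XY Ctr, 8 members were called, with 38.7% of all genes called. Of the members 2 were higher and 6 lower, of all 11777 genes 2677 were higher and 1882 lower, and the member median was -0.67 against 0.05. Comparisons that share a control group are not independent of each other.

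When Ctnnb1 was lost together with Sox9, part of the pathway stood higher than with Sox9 loss alone. In XY DKO against XY Sox9KO, 5 members were higher and 1 lower, with 11.1% of all genes called higher and 10.8% lower and a member median of 0.28 against -0.02. Against XY Ctr, XY DKO had 2 members higher and 4 lower, with 9.62% of all genes called higher and 7.61% lower. Against XX DKO, which has the same alleles and the other karyotype, XY DKO had 3 higher and 0 lower, with 3.45% of all genes called higher and 1.77% lower. In XX Ctnnb1KO against XX Ctr 2 members were higher and 1 lower, with 4.81% of all genes called higher and 5.32% lower. The same counts held for XX DKO against XX Ctr, with 7.29% of all genes called higher and 5.61% lower. No member was called in XY Ctnnb1KO against XY Ctr, where 0.0679% of all genes were (8, and 473 at an unadjusted p under 0.05), nor in XY Sox9KO against XX Ctr, where 0.628% were. In XX Sox9KO against XX Ctr and in XX DKO against XX Ctnnb1KO limma called 0% of all genes, with 537 and 965 genes at an unadjusted p under 0.05.

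Dhh, the ligand gene, had a signal of 391, 449 and 468 in the 3 XY DKO gonads, 27.2, 41.7, 27.5 and 48.7 in XY Sox9KO, 2192, 2199, 1844 and 1938 in XY Ctnnb1KO, and 2269, 2313, 2394 and 2015 in XY Ctr. XY DKO lay wholly between the other XY groups, far above XY Sox9KO and well under the Sox9-carrying gonads. In XX gonads the signal was 166, 195, 155 and 185 in DKO, 49.8, 46.7, 42.1 and 30.7 in Sox9KO, 126, 153, 119 and 169 in Ctnnb1KO, and 44.8, 35.3, 75.0 and 28.8 in Ctr. Every XX gonad without Ctnnb1 lay above every XX gonad with it. XY Sox9KO, XX Sox9KO and XX Ctr made up the low end of the order and differed by less than their spread.

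Dhh was 5.24 ± 0.17 log2 units higher in XY Ctr than in XX Ctr (SE, adjusted p = 5.9e-21). It fell by 5.46 ± 0.17 in XY Sox9KO against XY Ctr (adjusted p = 2.8e-21) and fell by 2.33 ± 0.18 in XY DKO against XY Ctr (adjusted p = 4.2e-11). XY DKO was 3.13 ± 0.18 above XY Sox9KO (adjusted p = 4.7e-14) and 1.24 ± 0.18 above XX DKO (adjusted p = 5.1e-05). Whether a bulk signal is lower because fewer cells of a type are present or because each holds less RNA cannot be told apart here, for Dhh or any other gene.

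In XX gonads Dhh rose by 1.39 ± 0.17 in Ctnnb1KO (adjusted p = 3.6e-07) and by 1.68 ± 0.17 in DKO (adjusted p = 1.1e-08), each against XX Ctr. Without XX Ctnnb1KO replicate 4 the first of these was 1.31 ± 0.18 (adjusted p = 4.9e-06). Between XX DKO and XX Ctnnb1KO the difference was 0.28, with a 95% confidence interval of -0.06 to 0.63, and did not pass the test, nor did the 0.37 ± 0.18 without replicate 4. XX Sox9KO differed from XX Ctr by -0.05, with an interval of -0.39 to 0.30. XY Ctnnb1KO differed from XY Ctr by -0.14, with an interval of -0.48 to 0.21. The rise in XX Ctnnb1KO is small beside the testis level: its mean, 142 ± 23.3 (SD, n = 4), or 133 ± 17.6 without replicate 4 (n = 3), compares with 2248 ± 164 in XY Ctr (n = 4). A weaker second Dhh probe set did not pass the filter, with group means of 15.2 to 76.0, and was highest in XY Ctr. It did not show the rise in XX gonads. Its means in XX DKO and XX Ctnnb1KO were the lowest of all groups and lay below that of XX Ctr, with overlapping arrays. The rise in XX gonads thus rests on the brighter probe set, and the differences on the weaker one were not tested. The other hedgehog ligand genes gave no comparable signal on their own probe sets, as Shh reached at most 52.5 and Ihh at most 76.8 on any array, both below the filter.

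**Figure D1:**
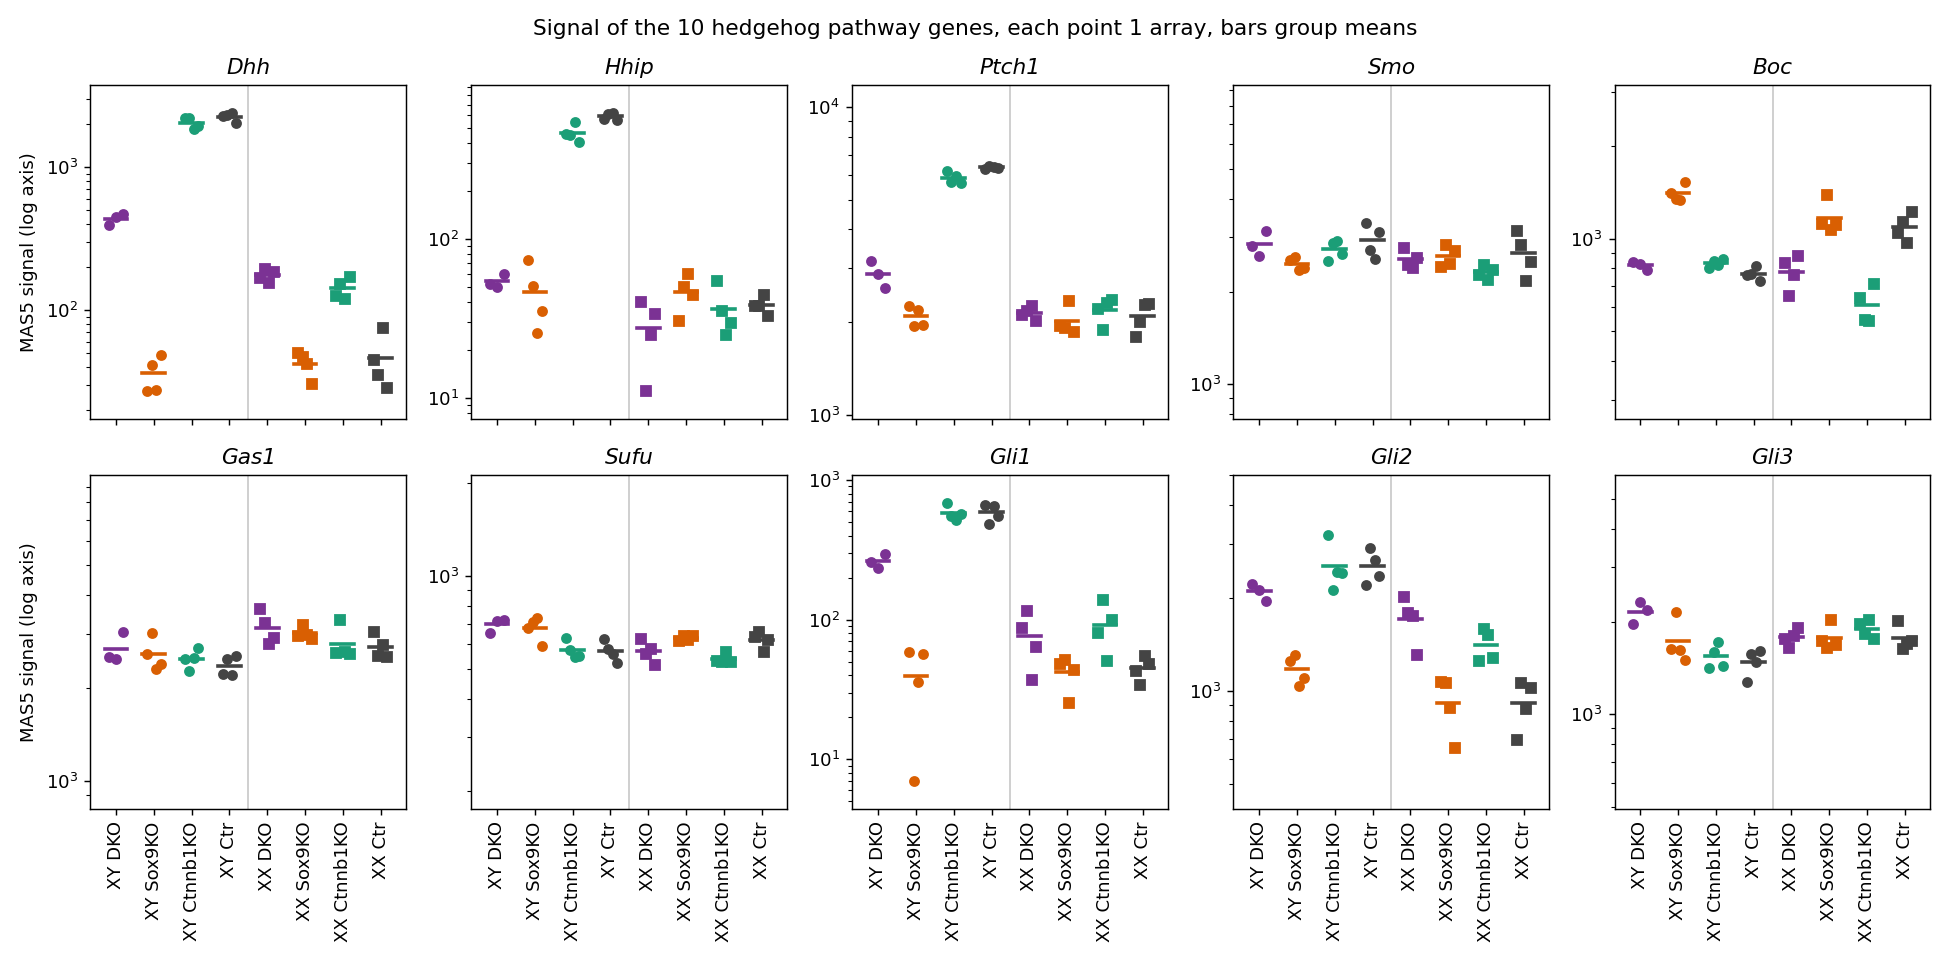
MAS5 signal of each of the 10 genes (log axis, panels with their own ranges) in the 8 groups, each point 1 array and each bar a group mean, with XY gonads as circles left of the grey line and XX gonads as squares. For Dhh and Gli1, XY DKO lies between XY Sox9KO and XY Ctr, whereas Hhip in XY DKO, at a mean of 54.0, lies beside XY Sox9KO at 46.1.

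Ptch1, the receptor that restrains Smo and is itself switched on by the pathway, had a signal of 3153, 2866 and 2589.6 in XY DKO, 2265, 1945, 2194 and 1954 in XY Sox9KO, 6189, 5684, 5967 and 5659.9 in XY Ctnnb1KO, and 6283, 6405, 6401 and 6327 in XY Ctr. XY DKO lay above every XY Sox9KO gonad and below every XY Ctr gonad. The 16 XX gonads ran from 1786 to 2356, with group means of 2141 ± 104 in DKO, 2018 ± 222 in Sox9KO, 2188 ± 209 in Ctnnb1KO and 2088 ± 241 in Ctr (SD, n = 4 each). These 4 means and that of XY Sox9KO differed from each other, in order of level, by less than the spread, and XY DKO lay above the highest of them by more.

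Ptch1 was 1.61 ± 0.09 higher in XY Ctr than in XX Ctr (adjusted p = 1.4e-15) and fell by 1.60 ± 0.09 in XY Sox9KO against XY Ctr (adjusted p = 1.5e-15). In XY DKO it was 1.15 ± 0.09 under XY Ctr (log2 difference -1.15, adjusted p = 8.8e-11) and 0.45 ± 0.09 above XY Sox9KO (adjusted p = 0.00051). Its other 2 probe sets gave 0.61 ± 0.29 (adjusted p = 0.15) and 0.50 ± 0.20 (adjusted p = 0.080) for XY DKO against XY Sox9KO, of like size and not called. XY DKO also stood 0.42 ± 0.09 above XX DKO (adjusted p = 0.0060). That call was lost when the fit used only the 7 arrays of this comparison (adjusted p = 0.065) and without XY DKO replicate 2 (0.35, adjusted p = 0.058). The other 2 probe sets gave 0.13 ± 0.29 (adjusted p = 0.84) and 0.59 ± 0.20 (adjusted p = 0.085) for it. In XX Ctnnb1KO and XX DKO, where Dhh was higher, Ptch1 differed from XX Ctr by 0.07 (interval -0.11 to 0.25) and 0.04 (interval -0.13 to 0.22). The same was 0.03 ± 0.09 in XX Ctnnb1KO without replicate 4.

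Hhip, a membrane protein that binds hedgehog ligands and dampens the signal, was low in XY DKO. Its signal was 52.3, 49.9 and 59.7 in XY DKO, 73.4, 50.2, 25.6 and 35.1 in XY Sox9KO, 454, 449, 543 and 405 in XY Ctnnb1KO, and 568, 608, 621 and 558 in XY Ctr. XY DKO lay within the range of XY Sox9KO, and all XX gonads lay between 11.01 and 60.0. The gene fell by 3.34 ± 0.22 in XY Sox9KO (adjusted p = 2.2e-13) and fell by 3.11 ± 0.24 in XY DKO (adjusted p = 3.6e-11), each against XY Ctr. Between XY DKO and XY Sox9KO it differed by 0.23 ± 0.24, with an interval of -0.26 to 0.72 (adjusted p = 0.54). XY Ctr was 3.49 ± 0.22 above XX Ctr (adjusted p = 8.1e-14). XY Ctnnb1KO differed from XY Ctr by -0.34 (interval -0.80 to 0.11), without overlap of the arrays, as did Ptch1 by -0.11 (interval -0.29 to 0.06). Arrays of these groups did not overlap for 3.50% of all genes, and neither gene was called.

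Other Hhip probe sets showed the same. The 2 that passed the filter differed between XY DKO and XY Sox9KO by 0.03 ± 0.35 and 0.11 ± 0.31, and between XY DKO and XY Ctr by -2.81 ± 0.35 and -3.02 ± 0.31. In XX Ctnnb1KO Hhip differed from XX Ctr by -0.09 (interval -0.54 to 0.37), or by -0.03 without replicate 4, and in XX DKO by -0.36 (interval -0.82 to 0.09). The 2 others gave -0.83 ± 0.32 (adjusted p = 0.10) and -0.13 ± 0.28 in XX DKO against XX Ctr. Signals this close to the low end of the scale limit what the log2 difference can show.

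Gli1, the transcription factor most commonly used as a readout of hedgehog signalling, is covered by 1 probe set. Its signal was 257, 236 and 295 in XY DKO, 58.5, 7.0, 35.9 and 56.5 in XY Sox9KO, 689, 549.8, 516 and 569 in XY Ctnnb1KO, and 661, 484, 656 and 557 in XY Ctr. The 3 XY DKO gonads lay above all XY Sox9KO and below all XY Ctr gonads, as for Dhh. In XX gonads it was 87.8, 116, 37.2 and 63.4 in DKO, 47.9, 51.1, 25.4 and 43.8 in Sox9KO, 80.5, 139, 50.5 and 99.0 in Ctnnb1KO, and 43.1, 33.9, 55.1 and 48.2 in Ctr. XX DKO and XX Ctnnb1KO overlapped with XX Ctr, with 3 of 4 gonads of each above all 4 XX Ctr gonads.

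Gli1 was 3.31 ± 0.29 higher in XY Ctr than in XX Ctr (adjusted p = 8.1e-11) and fell by 3.58 ± 0.29 in XY Sox9KO against XY Ctr (adjusted p = 1.5e-11). XY DKO was 2.46 ± 0.31 above XY Sox9KO (adjusted p = 3.9e-07) and 1.67 ± 0.31 above XX DKO (adjusted p = 0.0011). It was 1.11 ± 0.31 under XY Ctr (log2 difference -1.11, adjusted p = 0.012), a call lost with a pseudocount of 1 (adjusted p = 0.073) and without XY DKO replicate 3 (adjusted p = 0.055). In XX Ctnnb1KO it was 0.77 ± 0.29 above XX Ctr (adjusted p = 0.093), and 0.72 ± 0.32 without replicate 4 (adjusted p = 0.20). The difference passed the test when replicate 3 was left out instead, at 0.99 (adjusted p = 0.033). In XX DKO it was 0.53 ± 0.29 (adjusted p = 0.25).

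Gli2, the main activating Gli protein in mouse tissues, had a signal of 2228, 2129 and 1955 in XY DKO, 1251, 1309, 1039 and 1097 in XY Sox9KO, 3196, 2123, 2428 and 2408 in XY Ctnnb1KO, and 2213, 2905, 2660.4 and 2358 in XY Ctr. XY DKO lay above every XY Sox9KO gonad and overlapped with XY Ctr. In XX gonads it was 2013, 1791, 1751 and 1306 in DKO, 1064, 1061, 880.4 and 650.4 in Sox9KO, 1247, 1591, 1519 and 1275 in Ctnnb1KO, and 691, 1057, 875 and 1020.1 in Ctr. The XX gonads without Ctnnb1 all lay above XX Ctr and XX Sox9KO.

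Gli2 was 1.47 ± 0.15 higher in XY Ctr than in XX Ctr (adjusted p = 2.9e-09) and fell by 1.10 ± 0.15 in XY Sox9KO against XY Ctr (adjusted p = 7.2e-07). XY DKO was 0.84 ± 0.16 above XY Sox9KO (adjusted p = 0.00028) and differed from XY Ctr by -0.26 (interval -0.59 to 0.07, adjusted p = 0.30). It rose in XX Ctnnb1KO by 0.63 ± 0.15 (adjusted p = 0.0044) and in XX DKO by 0.90 ± 0.15 (adjusted p = 6.0e-05), each against XX Ctr, and by 0.67 ± 0.16 in XX Ctnnb1KO without replicate 4 (adjusted p = 0.0064). A second Gli2 probe set gave 0.57 ± 0.12 and 0.88 ± 0.12 for the same comparisons and 1.02 ± 0.13 for XY DKO against XY Sox9KO.

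Gli3, which in processed form is the main repressor among the Gli proteins, varied little. Its group mean was highest in XY DKO, at 2152 ± 179.8 (SD, n = 3), against 1727 ± 291 in XY Sox9KO and 1483 ± 147 in XY Ctr (n = 4 each). The rises in XY DKO, by 0.53 ± 0.11 against XY Ctr (adjusted p = 0.00055) and 0.33 ± 0.11 against XY Sox9KO (adjusted p = 0.029), did not appear in its other 2 probe sets. Those gave 0.02 ± 0.15 and -0.06 ± 0.15 against XY Ctr, and -0.04 ± 0.15 and -0.38 ± 0.15 against XY Sox9KO. Gli3 was lower in XY Ctr than in XX Ctr by -0.25 ± 0.10 (adjusted p = 0.047), a call lost in 10 of 15 alternative settings.

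Boc, a co-receptor that binds the ligand together with Ptch1, ran in the other direction. Its signal was 839, 825 and 791 in XY DKO, 1405, 1343, 1332 and 1522 in XY Sox9KO, 802, 847, 821 and 861 in XY Ctnnb1KO, and 764, 770.3, 816 and 727 in XY Ctr. All 4 XY Sox9KO gonads stood above every other XY gonad. In XX gonads it was 834, 650.4, 761 and 876 in DKO, 1113, 1385, 1065 and 1109 in Sox9KO, 643, 545, 539 and 712 in Ctnnb1KO, and 1044, 1129.8, 967 and 1217 in Ctr. XX gonads that lacked Ctnnb1 lay below those that kept it.

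Boc rose by 0.85 ± 0.10 in XY Sox9KO against XY Ctr (adjusted p = 2.9e-08), and in XY DKO it was lower than in XY Sox9KO by -0.76 ± 0.11 (adjusted p = 2.2e-06). XY DKO and XY Ctr differed by 0.09 (interval -0.13 to 0.31). Boc was lower in XY Ctr than in XX Ctr by -0.49 ± 0.10 (adjusted p = 0.00018), in XX Ctnnb1KO than in XX Ctr by -0.83 ± 0.10 (adjusted p = 2.8e-07), and in XX DKO than in XX Ctr by -0.48 ± 0.10 (adjusted p = 0.00084). Without XX Ctnnb1KO replicate 4 the second of these was -0.90 ± 0.10. A second Boc probe set gave the same calls in these 5 comparisons, with differences of 0.70, -0.44, -0.55, -0.71 and -0.51. XY Sox9KO stood 0.36 above XX Ctr (adjusted p = 0.059), and this passed the test only without XX Ctr replicate 4 (0.42, adjusted p = 0.036) among the alternatives run.

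Smo, the signal transducer that Ptch1 restrains, had group means between 2310.4 and 2931. It was lower in XY Sox9KO than in XY Ctr by -0.24 ± 0.10 (adjusted p = 0.042), with overlapping arrays, and this call was lost in 8 of 15 alternative settings. A second Smo probe set was higher in XY Ctr than in XX Ctr by 0.36 ± 0.10 (adjusted p = 0.0068), where the first differed by 0.15 ± 0.10. Gas1, a membrane-anchored co-receptor, had group means between 2358 and 3129.6 and was called in no comparison. Sufu, which binds Gli proteins and keeps them inactive, had group means between 536.5 and 695.8. It was 0.28 ± 0.09 higher in XY DKO (adjusted p = 0.025) and 0.24 ± 0.08 higher in XY Sox9KO (adjusted p = 0.020) than in XY Ctr. These calls were lost in 6 of 14 and 5 of 15 alternatives, and a second Sufu probe set gave 0.05 ± 0.22 and 0.45 ± 0.20, not called.

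**Figure D2:**
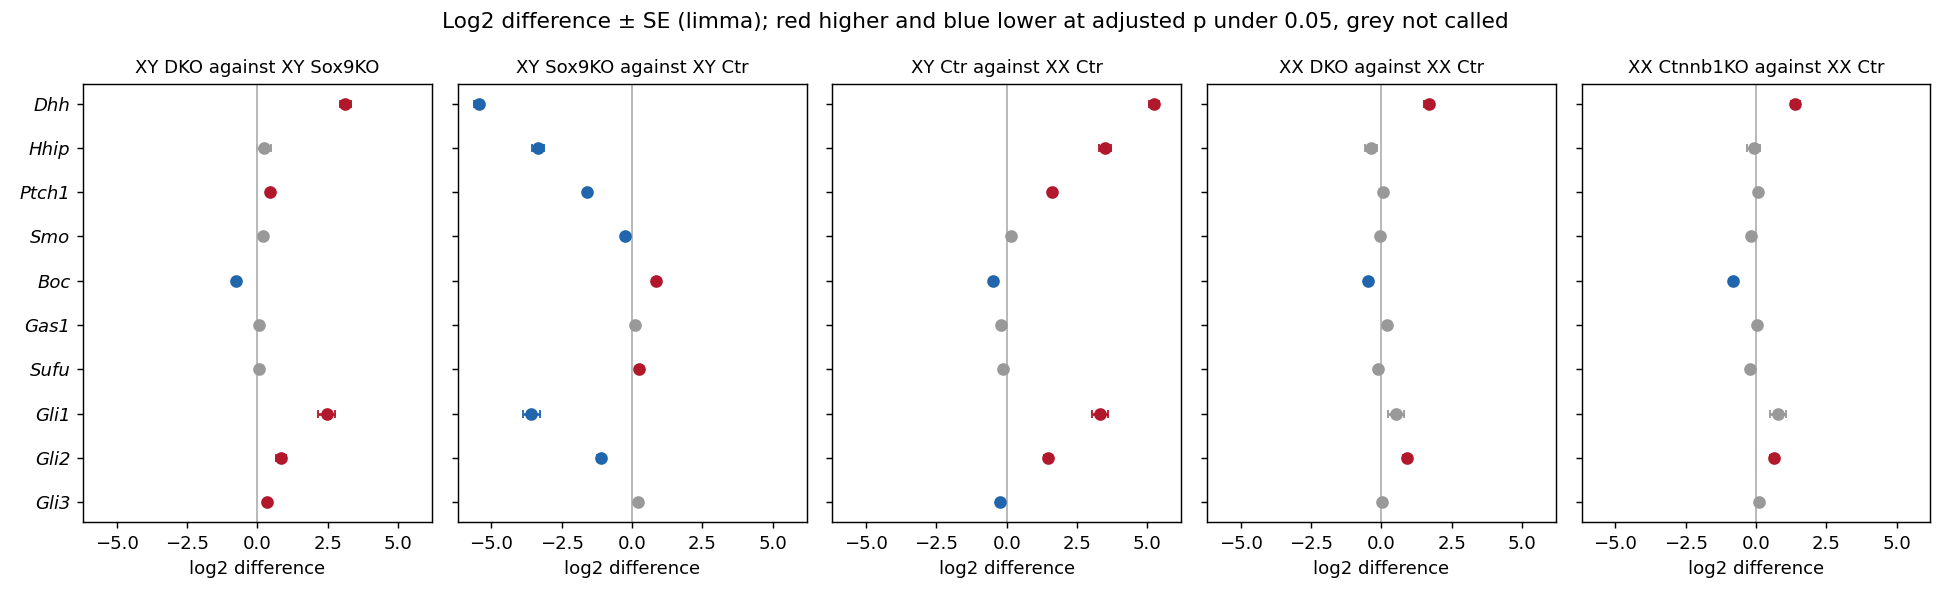
Log2 difference with its SE (limma) of the 10 genes in 5 comparisons, the first-named group minus the other, with red for higher, blue for lower and grey for not called at an adjusted p under 0.05. Dhh and Gli2 are higher and Boc lower in XX DKO and XX Ctnnb1KO against XX Ctr. The other members, Gli1, Ptch1 and Hhip among them, were not called there.

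The 5 genes called higher in XY Ctr than in XX Ctr took different places between these ends in the same gonads. With the XX Ctr mean set to 0% and the XY Ctr mean to 100% on the log2 scale of each gene, XY DKO lay at 82.3 ± 6.5% for Gli2, 66.4 ± 4.6% for Gli1, 55.6 ± 2.5% for Dhh, 28.6 ± 8.8% for Ptch1 and 10.7 ± 3.0% for Hhip (SD, n = 3). XY Sox9KO lay at 25.4 ± 10.5% for Gli2, -8.0 ± 23.9% for Gli1, -4.1 ± 5.6% for Dhh, 0.3 ± 7.0% for Ptch1 and 4.1 ± 13.7% for Hhip (n = 4). XX DKO lay at 61.4 ± 17.9% for Gli2 and 32.0 ± 2.6% for Dhh, with Gli1 at 15.9 ± 17.0%, Ptch1 at 2.6 ± 4.3% and Hhip at -10.4 ± 13.3% (n = 4). XX Ctnnb1KO was placed much like XX DKO, with Gli2 at 42.9 ± 11.9%, Dhh at 26.6 ± 4.0%, Gli1 at 23.3 ± 15.4%, Ptch1 at 4.3 ± 8.9% and Hhip at -2.5 ± 9.8%. Without replicate 4 these were 45.9%, 25.0%, 21.8%, 2.0% and -0.99%, in that order. Boc, which is lower in XY Ctr, lay at 81.9 ± 8.8% in XY DKO, -73.6 ± 17.7% in XY Sox9KO, 97.3 ± 37.7% in XX DKO and 168 ± 38.7% in XX Ctnnb1KO (184 ± 28.4% without replicate 4). Gli3, with the smallest control difference of the 7 called genes, lay at -113 ± 48.2% in XY DKO. The controls set the ends of this scale, and it is compressed for genes of low signal.

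**Figure D3:**
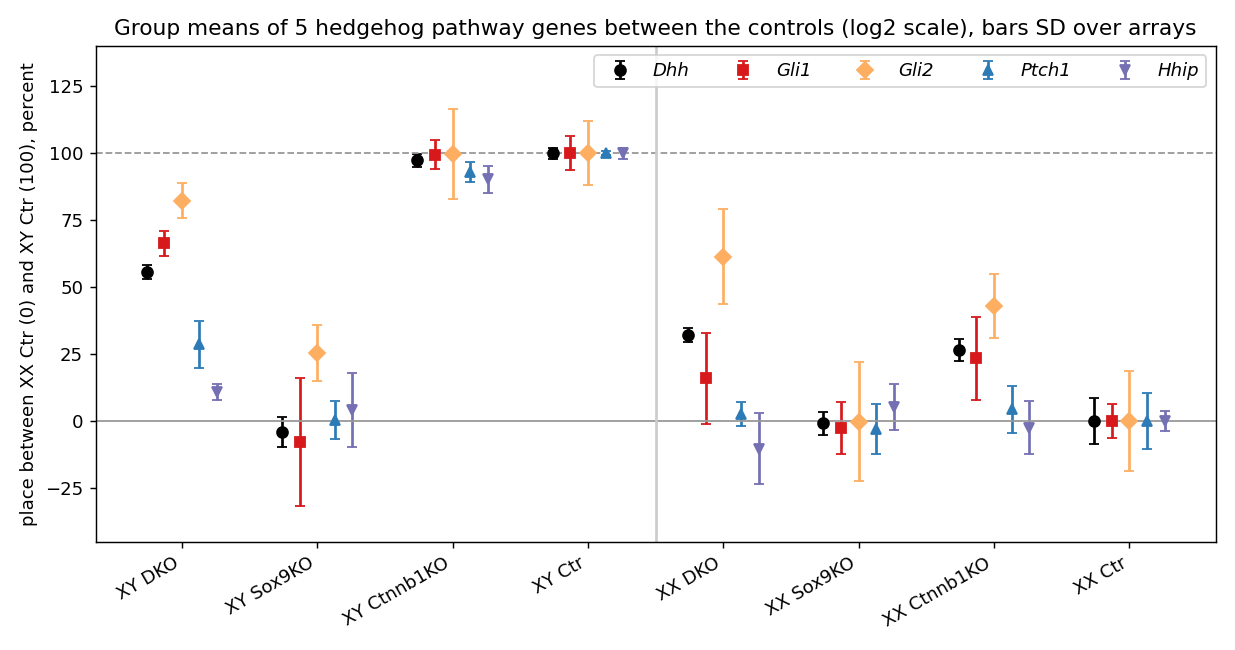
Mean place of each group, in percent of the distance from XX Ctr (0) to XY Ctr (100) on the log2 scale, for the 5 genes called higher in XY Ctr than in XX Ctr, with bars for the SD over 4 arrays (3 for XY DKO). In XY DKO the genes spread from 10.7% for Hhip to 82.3% for Gli2. In XY Ctnnb1KO they run from 90.2% for Hhip to 99.6% for Gli2.

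Pairs of members were also set against each other within arrays, on the plain log2 scale. The differences between the controls are unlike in size, at 3.31 for Gli1, 3.49 for Hhip, 1.47 for Gli2 and 1.61 for Ptch1. The values that follow therefore do not compare the places given above. The log2 value of Gli1 minus that of Hhip was 2.23 higher in XY DKO than in XY Sox9KO, that of Gli2 minus Hhip 0.61 higher and that of Gli1 minus Ptch1 2.01 higher. In each of these 3 all XY DKO arrays stood on 1 side of all XY Sox9KO arrays (two-sided exact permutation p = 0.057, adjusted p = 0.076 over the 4 pairs tested). That is the smallest p that 3 against 4 arrays allow, so this test cannot pass 0.05. Ptch1 minus Hhip differed by 0.22 (exact permutation p = 0.51). The pairs were chosen after the values were seen.

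Whether Ctnnb1 loss acted differently with and without Sox9 in XY gonads was tested as an interaction, in which 4 members were called higher and 1 lower, with 5.27% of all genes higher and 4.47% lower. Loss of Ctnnb1 shifted Dhh by 3.27 ± 0.25 more in XY gonads without Sox9 than in those with it (adjusted p = 6.2e-11). The same interaction was 2.48 ± 0.42 for Gli1 (adjusted p = 0.00012), 0.84 ± 0.22 for Gli2 (adjusted p = 0.012), 0.57 ± 0.13 for Ptch1 (adjusted p = 0.0027) and -0.88 ± 0.14 for Boc (adjusted p = 7.3e-05). The Ptch1 interaction was not called on its other 2 probe sets, at 0.80 ± 0.39 (adjusted p = 0.26) and 0.59 ± 0.27 (adjusted p = 0.22). For Hhip it was 0.57, with an interval of -0.10 to 1.24, and did not pass the test. Between the sexes, where 1.75% of all genes were called higher and 2.45% lower, the effect of Ctnnb1 loss was higher for 1 member and lower for 1. The effect in XX minus that in XY was 1.53 ± 0.24 for Dhh (adjusted p = 6.9e-05) and -0.94 ± 0.14 for Boc (adjusted p = 3.4e-05). Without XX Ctnnb1KO replicate 4 these were 1.45 ± 0.25 and -1.01 ± 0.14, both called.

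Beyond the members, 23 further genes of the pathway were tested, and 5, Shh, Ihh, Scube2, Lrp2 and Hhatl, were below the filter. In XY Ctr against XX Ctr 4 of the 23 were higher and 5 lower, with a median of -0.06, while 18.0% of all genes were higher and 19.8% lower. Scube1, whose family helps release lipid-bound hedgehog from cells, was higher by 1.64 ± 0.18, and Gpc3, a glypican that in mice competes with Ptch1 for the ligand, by 0.96 ± 0.07. The ciliary kinesin gene Kif7 was higher by 0.32 ± 0.09. Lower were Btrc, a ubiquitin ligase subunit that marks Gli proteins, by -0.60 ± 0.08, Scube3 by -0.65 ± 0.13 and Disp1, which exports the ligand, by -0.63 ± 0.13.

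Scube1 followed the order seen for Dhh in several comparisons. It did not do so in XY DKO against XX DKO, where Dhh was called higher and Scube1 was not called. Its mean was 297 ± 80.6 in XY DKO (SD, n = 3), against 181 ± 29.7 in XY Sox9KO (n = 4), a rise of 0.65 ± 0.19 (adjusted p = 0.014) with overlapping arrays. In XX gonads it was 292 ± 37.4 in DKO and 293 ± 43.4 in Ctnnb1KO, against 141 ± 27.5 in Ctr (n = 4 each), and rose by 0.98 ± 0.18 and 0.99 ± 0.18 (1.03 ± 0.19 without replicate 4 of Ctnnb1KO). Scube1 was also the 1 listed gene called in each interaction, at 0.98 ± 0.26 for Ctnnb1 and Sox9 loss in XY (adjusted p = 0.012) and 1.32 ± 0.25 between the sexes (adjusted p = 0.00092; 1.36 ± 0.26 without that replicate). Gpc3 stood low in XY DKO, at 5542 ± 219 against 9318 ± 417 in XY Ctr, a fall of 0.75 ± 0.07 on the log2 scale.

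In XY Sox9KO against XY Ctr, where 38.7% of all genes were called, 4 of the 23 were higher and 4 lower. Among them were Scube1 at -1.31 ± 0.18, Gpc3 at -0.92 ± 0.07, Disp1 at 0.73 ± 0.13, Scube3 at 0.58 ± 0.13, Btrc at 0.48 ± 0.08 and Mosmo, which attenuates Smo, at -0.38 ± 0.10. In XY DKO against XY Sox9KO, with 11.1% of all genes higher and 10.8% lower, 1 was higher and 3 lower, among them Tulp3, which carries receptors into the cilium, at -0.58 ± 0.12 and Btrc at -0.40 ± 0.08. In XY DKO against XY Ctr, with 9.62% of all genes higher and 7.61% lower, 1 was higher, Scube3 at 0.72 ± 0.14, and 3 lower, among them Tulp3 at -0.43 ± 0.12. XX Ctnnb1KO against XX Ctr gave 1 higher and 2 lower, with 4.81% of all genes higher and 5.32% lower, or 1 and 3 without replicate 4. XX DKO against XX Ctr gave 1 higher and 3 lower, with 7.29% of all genes higher and 5.61% lower. Btrc and Tulp3 were lower in both, by -0.41 ± 0.08 and -0.46 ± 0.12 in XX Ctnnb1KO, or by -0.41 ± 0.09 and -0.45 ± 0.13 without replicate 4. The other 5 pairwise comparisons called none of the 23.

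Marker lists of several of the gonad's cell types are given for the same groups, and those of germ cells and the mesonephros are left out. The 10 Sertoli markers summed to 5577 to 6571 in XY DKO, 3106 to 3435 in XY Sox9KO and 23336 to 27896 in XY Ctr, and to 3599 to 4704 in XX DKO, 3657 to 4807 in XX Ctnnb1KO and 2939 to 3529 in XX Ctr. Of the 9 tested, 4 were higher and 1 lower in XY DKO against XY Sox9KO, with a median of 0.17, where 11.1% of all genes were higher and 10.8% lower. In XX Ctnnb1KO against XX Ctr 3 of the 9 were higher and 1 lower, with 4.81% of all genes higher and 5.32% lower. Fetal Leydig markers, 5 of 7 listed, summed to 13780 to 17166 in XY DKO, 1953 to 2434 in XY Sox9KO and 35450 to 40867 in XY Ctr, and all 5 were higher in XY DKO than in XY Sox9KO. Among them Cyp11a1, which starts steroid synthesis, was at 2665 ± 279 in XY DKO (SD, n = 3) and 15.7 ± 15.6 in XY Sox9KO (n = 4). Another of the 5, Hsd17b3, is made by Sertoli cells in the fetus, so this list is not of Leydig cells alone.

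Against XX Ctr, 4 of the 5 Leydig markers were higher in XX DKO and in XX Ctnnb1KO, and 1, Hsd3b1, was lower. Hsd17b3, which Sertoli cells make in the fetus, was among the 4. Of all genes, 7.29% were higher and 5.61% lower in XX DKO than in XX Ctr. In XX Ctnnb1KO these shares were 4.81% and 5.32%. Cyp11a1 was at 193 ± 53.3 in XX DKO and 245 ± 163 in XX Ctnnb1KO, against 31.2 ± 18.6 in XX Ctr (SD, n = 4 each). Interstitial progenitor markers, 6 of 8 listed, summed to 22731 to 25200 in XY DKO, 14152 to 16949 in XY Sox9KO and 27796 to 30318 in XY Ctr. They summed to 18314 to 23158 in XX DKO and 17203 to 19600 in XX Ctnnb1KO, against 13584 to 15882 in XX Ctr. Of these 6, 4 were higher in XY DKO than in XY Sox9KO, where 11.1% of all genes were higher and 10.8% lower. Against XX Ctr 5 were higher in XX DKO and 1 in XX Ctnnb1KO, and none was lower in these comparisons. Of the peritubular myoid markers 3 were tested, and all 3 were lower in XY Sox9KO than in XY Ctr, where 38.7% of all genes were called. In XY DKO against XY Sox9KO, and in XX DKO and XX Ctnnb1KO against XX Ctr, 2 of the 3 were higher and none lower.

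Pregranulosa markers, the 7 listed for the supporting cells of the ovary, summed to 5626 to 6736 in XY DKO, 12227 to 13143 in XY Sox9KO and 1530.2 to 1745 in XY Ctr. All 7 were higher in XY Sox9KO than in XY Ctr, where 38.7% of all genes were called. In XY DKO against XY Sox9KO and in XX Ctnnb1KO against XX Ctr 6 were lower and 1, Rspo1, higher. Of all genes, 10.8% were lower and 11.1% higher in the first, and 5.32% and 4.81% in the second. Against XX Ctr 4.81% of all genes were higher in XX Ctnnb1KO and 7.29% in XX DKO, and against XY Ctr 9.62% in XY DKO. The 3 macrophage markers tested were all higher in each of these comparisons. Their list of 4 summed to 3029 to 3919 in XY DKO, against 1480 to 2111 in XY Ctr. Without XX Ctnnb1KO replicate 4 the counts given for these lists in XX Ctnnb1KO against XX Ctr were the same. Cyp11a1 was then at 282 ± 177 (SD, n = 3) in XX Ctnnb1KO. None of the markers named here was listed at 0, and the part these cell types have in the hedgehog results was not tested.

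The genes whose 8 group means followed those of a member most closely were named as a description. They were Dusp6, Casq2, Lmnb1, Heyl and Lsp1 for Dhh (Pearson r 0.996 to 0.999), and Pdlim3, Trim47, Pak3, Lifr and Tram1 for Gli1 (r 0.994 to 0.997). For Ptch1 they were Kcnmb4, Rtn4rl1, Lss, Dtx4 and Sema5a (r 0.996 to 0.999), and for Hhip Cstdc1, Ankrd63, Gramd3, Rwdd2a and Ctsl (r 0.991 to 0.993). Among the members, Dhh correlated with Gli1 at 0.988, with Ptch1 at 0.949, with Gli2 at 0.945 and with Hhip at 0.873, and Hhip with Ptch1 at 0.981. These r are over 8 means that come from the same arrays.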

How the data were processed

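The authors deposited 1 linear intensity for each probe set, which their processing notes credit to MAS5, with no version. The trimmed mean of every array is 500.0. Per the labels' protocols, each array holds 1 pair of gonads, and 40 ng of RNA was amplified, which can favour transcript ends. Arrays have no read depth, so their number sets the precision.

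Of 45101 probe sets, 34945 have 1 gene symbol, and none with several was used. Genes above their own array's median on at least 3 arrays, 11777 in all, entered 1 limma fit (version 3.58.1, R 4.3.3) of 8 group means on log2(signal + 16), with eBayes and a trend, 23 residual degrees of freedom, and Benjamini-Hochberg adjustment over all genes of a comparison. The fit was tested on simulated data. There were 11 pairwise comparisons and 2 interactions, and p-values measure the spread between pairs of gonads. The order of group means was set against the pooled SD of both neighbours.

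All members are named. Of the other pathway genes, up to 6 called ones by adjusted p are named in a comparison. For 4 members the 5 genes with the closest group means are named. The members and all lists were chosen with earlier results of these data known. The alternatives tried were leaving out each array, a replicate block, only the arrays compared, the second-highest probe set, dropping the filter, a pseudocount of 1 or of 64, and quantile normalization. A gene with only 1 probe set kept it where the second-highest was read. Every probe set fitted in its own right, and the lists without XX Ctnnb1KO replicate 4, were added after seeing the data. Replicate numbers were not taken as pairs: in each of the 11 pairwise comparisons at least 1 pair of same-numbered arrays had a correlation of deviations under 0.1 (lowest -0.45 to 0.06). Same-numbered arrays had a mean of 0.18 in XX DKO against XX Ctnnb1KO and in XY Sox9KO against XX Ctr, against -0.06 for other pairs. The next highest means were 0.16 in XY DKO against XY Ctr and 0.14 in XY DKO against XX DKO. Lowest were -0.22 in XY DKO against XY Sox9KO and -0.15 in XX Sox9KO against XX Ctr, with 0.07 and 0.05 for other pairs. Whether arrays of 1 number share a deviation was not tested. Promoters came from RefSeq (GRCm38.p6), and Gli1 and Boc had none in the table.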

Additional observations from a re-analysis of the deposited data

Results flagged for a closer look

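Within groups of 4 arrays, 1 array stood far from the other 3 in 3 of 70 groups of a gene, where chance alone gives about 1 in 20. Boc signal was 1385 in XX Sox9KO replicate 2 against 1065 to 1113 in the other 3. Gas1 signal was 3329 in XX Ctnnb1KO replicate 2 against 2581 to 2608, and Sufu signal was 566 in XX Ctnnb1KO replicate 3 against 524 to 529. XX Sox9KO against XX Ctr called no member with or without that array, and Gas1 was called in no comparison.

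The effect of Ctnnb1 loss differed between XY gonads without Sox9 and those with it for 5 members, tested as a limma interaction. The interaction was 3.27 for Dhh, 2.48 for Gli1, 0.84 for Gli2, 0.57 for Ptch1 and -0.88 for Boc on the log2 scale. Between the sexes the effect, XX minus XY, differed by 1.53 for Dhh and by -0.94 for Boc. No explanation of these differences was tested.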

How the results depend on the processing

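Of 43 called differences of single members, 33 kept direction and call under every alternative run, and of 2057 alternative values 1 reversed, 43 lost and 10 gained a call. The reversal was Gli3 in XY DKO against XY Sox9KO, at -0.035 with the second probe set (adjusted p = 0.90). With second probe sets, 9 members were tested, Dhh falling below the filter. Among the 9 is Gli1, which has only 1 probe set and was read on it again. Members called were 5 in XY Sox9KO against XY Ctr, 3 in XY DKO against XY Ctr and 3 in XY DKO against XY Sox9KO. They were 1 in XY DKO against XX DKO, which was Gli1, and 3 in the interaction in XY. Gli1 was among those called in each of these. Without 1 array, members called ranged from 6 to 7 in XY Ctr against XX Ctr, 6 to 8 in XY Sox9KO against XY Ctr, 4 to 6 in XY DKO against XY Ctr, 5 to 6 in XY DKO against XY Sox9KO, 2 to 5 in XY DKO against XX DKO (5 without XX DKO replicate 1), 0 to 1 in XY Sox9KO against XX Ctr, 3 to 4 in XX Ctnnb1KO against XX Ctr and 2 to 3 in the interaction with sex. They stayed at 3 in XX DKO against XX Ctr, 5 in the interaction in XY and 0 in the other 3. Hhip in XY DKO against XX DKO, at 0.74 (adjusted p = 0.067), passed the test after quantile normalization (0.82, adjusted p = 0.040) and without XX DKO replicate 1 (0.88, adjusted p = 0.039).

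Replicate numbers were not taken as pairs of gonads. With the number as a replicate block, 6 members were called in XY Ctr against XX Ctr, where Gli3 missed the threshold (adjusted p = 0.053), and 4 in XY DKO against XX DKO, where Sufu passed it (0.30, adjusted p = 0.041), and no other call of a member changed. Over all genes, the count in XY DKO against XY Sox9KO was 1705 with only the arrays compared against 2572, and in XY DKO against XX DKO 179 against 615, or 349 to 660 without 1 array. In XY Sox9KO against XX Ctr it was 120 after quantile normalization, 30 without the filter, 7 with only the arrays compared and 8 to 228 without 1 array, against 74, and in XY Ctnnb1KO against XY Ctr 5 to 10 without 1 array against 8. Low signals of Dhh, Gli1 and Hhip in groups below the array median limit their differences there, and their cause was not tested.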
